A study of Homo sapiens with 60 samples.

Results

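The 10 genes that govern passage through the G1 phase that are described here were followed over 8 herbal extracts in A549 cells: the D-type cyclins CCND1, CCND2 and CCND3, the E-type cyclins CCNE1 and CCNE2, the CDK inhibitors CDKN1B (p27), CDKN2C (p18) and CDKN2D (p19), and the transcription factors E2F1 and MYC. They are 10 of 60675 gene IDs and were chosen by name, with the measured fall of CDKN2C under Scutellaria already seen, so every value under Scutellaria is given here as a description without a test. A549 is a much used cell line grown from a human lung adenocarcinoma. Gene expression was measured by RNA sequencing 24 h after treatment, in 60 libraries of 17.51 to 38.54 M counts that form 25 groups. The vehicle group had 3 libraries, labelled 0.1% DMSO, while the series text gives 2% DMSO, and which of these was used is unresolved. Water extracts of the formulas Sayeok-tang (3 libraries per dose) and Bojungikgi-tang (2 per dose, numbered 2 and 3) were given at 500 (high), 100 (medium) and 20 (low) µg/mL. Ethanol extracts of Zingiberis Rhizoma Recens (fresh ginger), Zingiberis Rhizoma (dried ginger) and Pinelliae Tuber (Pinellia) were used at those same doses, with 3 libraries each. Scutellariae Radix (Scutellaria), also an ethanol extract, was given at 190, 38 and 7.6 µg/mL with 3 libraries per dose. Ethanol extracts of Coptidis Rhizoma (Coptis; 110, 22 and 4.4 µg/mL) and Zizyphi Fructus (Zizyphus; 500, 100 and 20 µg/mL) had 1 library per dose and could not be tested. For an extract whose IC20 lay under 500 µg/mL, the series text sets that IC20 as the high dose.

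D-type cyclins bind and activate CDK4 and CDK6, which begin the phosphorylation of the retinoblastoma protein RB1. CDK2 bound to E-type cyclins then completes it, and freed E2F factors switch on the genes of DNA replication. CDKN2C and CDKN2D belong to the INK4 family and block CDK4 and CDK6, CDKN1B holds back CDK2 complexes, and MYC drives growth and cell cycle entry. A bulk library cannot tell fewer cells in a given phase from less RNA per cell, and this holds for every gene below.

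Promoter windows (250 bases before to 50 after an annotated start) were taken from RefSeq on GRCh38.p14 for 6 of the 10 genes, in 10 windows. No entry was matched for CCND1, CCND2, CCNE2 and MYC. A total of 4 windows are printed because CDKN2C, CCND3 and E2F1 are the falling genes on which the results turn: 2 of CDKN2C (chr1:50968456-50968755 and chr1:50969995-50970294, both plus strand), 1 of E2F1 (chr20:33686336-33686635, minus strand) and 1 of CCND3 (chr6:41941759-41942058, minus strand). Capitals mark the words found among TTTCGCGC, TTTGGCGC and TTCCCGCC, forms of the E2F site, and CACGTG, the E-box read by MYC, on either strand.
CDKN2C at 50968456-50968755: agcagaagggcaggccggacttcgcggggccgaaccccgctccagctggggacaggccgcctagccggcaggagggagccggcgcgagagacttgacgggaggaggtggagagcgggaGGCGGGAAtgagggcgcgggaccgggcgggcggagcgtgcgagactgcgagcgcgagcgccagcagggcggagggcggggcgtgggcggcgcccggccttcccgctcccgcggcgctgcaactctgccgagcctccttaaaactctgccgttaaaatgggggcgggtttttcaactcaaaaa
CDKN2C at 50969995-50970294: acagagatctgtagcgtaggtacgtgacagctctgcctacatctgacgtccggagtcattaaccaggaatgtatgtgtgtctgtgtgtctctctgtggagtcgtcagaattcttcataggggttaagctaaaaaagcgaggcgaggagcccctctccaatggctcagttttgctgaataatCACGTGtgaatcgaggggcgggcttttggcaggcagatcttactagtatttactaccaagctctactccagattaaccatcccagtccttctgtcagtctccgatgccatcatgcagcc
E2F1: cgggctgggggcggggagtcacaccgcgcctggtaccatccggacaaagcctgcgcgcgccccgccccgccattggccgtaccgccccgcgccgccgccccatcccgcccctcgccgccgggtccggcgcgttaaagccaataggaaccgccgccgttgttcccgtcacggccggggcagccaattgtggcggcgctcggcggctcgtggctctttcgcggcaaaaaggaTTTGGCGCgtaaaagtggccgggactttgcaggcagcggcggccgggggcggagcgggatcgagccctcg
CCND3: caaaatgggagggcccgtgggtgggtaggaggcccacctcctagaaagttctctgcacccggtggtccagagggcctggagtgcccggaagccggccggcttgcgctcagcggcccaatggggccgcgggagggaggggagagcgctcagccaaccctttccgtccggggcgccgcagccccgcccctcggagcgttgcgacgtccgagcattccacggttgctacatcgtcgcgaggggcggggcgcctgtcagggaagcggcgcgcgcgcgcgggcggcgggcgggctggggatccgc
The first printed CDKN2C window holds GGCGGGAA, the reverse complement of TTCCCGCC, at position −132 from the start, and the other holds CACGTG at −69. A CDKN2C window further upstream (chr1:50960495-50960794, plus strand) holds CACGTG at −220. The E2F1 window holds TTTGGCGC at −20, and the windows of CCND3, CCNE1, CDKN1B and CDKN2D hold none of the words. Of 35116 promoter windows, 4.24% hold any of the 3 E2F words and 7.26% hold CACGTG, so the matches describe these windows and are not evidence of binding.

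In vehicle, levels per kilobase of exon (CPM per kb, CPM being the count relative to the scaled library total) ranked CCND1 first at 102.7, followed by MYC at 47.9, CCND3 at 42.5, E2F1 at 19.1, CDKN1B at 13.0, CCNE1 at 9.57, CDKN2C at 5.31, CDKN2D at 1.92 and CCNE2 at 1.77. CCND2 (ENSG00000118971, chromosome 12, 4273772 to 4305350) was at the limit of detection, with 112 counts over all 60 libraries, 0 counts in 12 of them and at most 8 in 1. A count of 0 allows up to 3 counts, or 0.0764 to 0.173 CPM depending on the library. Its highest count was the 8 of the high-dose Coptis library (95% Poisson interval 0.153 to 0.698 CPM), followed by 6 in each of 2 high-dose dried ginger libraries, 5 in medium-dose Coptis and 4 in low-dose Coptis and a few other libraries, against 2 to 3 counts in each vehicle library. CCND2 failed the filter on low counts, and the other 9 genes were tested. CDKN2A, the INK4 gene encoding p16, had 0 counts in 60 of 60 libraries and CDKN2B (p15) in 59, so CDKN2C and CDKN2D were the INK4 transcripts measured in these cells. The line's keratins and ALDH1A1 were abundant (KRT8 at 1935 to 3672 CPM, ALDH1A1 at 5522 to 7152 CPM), while the alveolar type 2 markers SFTPC, SFTPB, SFTPA1 and NKX2-1 did not pass 0.263 CPM and the leukocyte markers PTPRC, CD3E and LYZ did not pass 0.128 CPM.

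**Figure D1:**
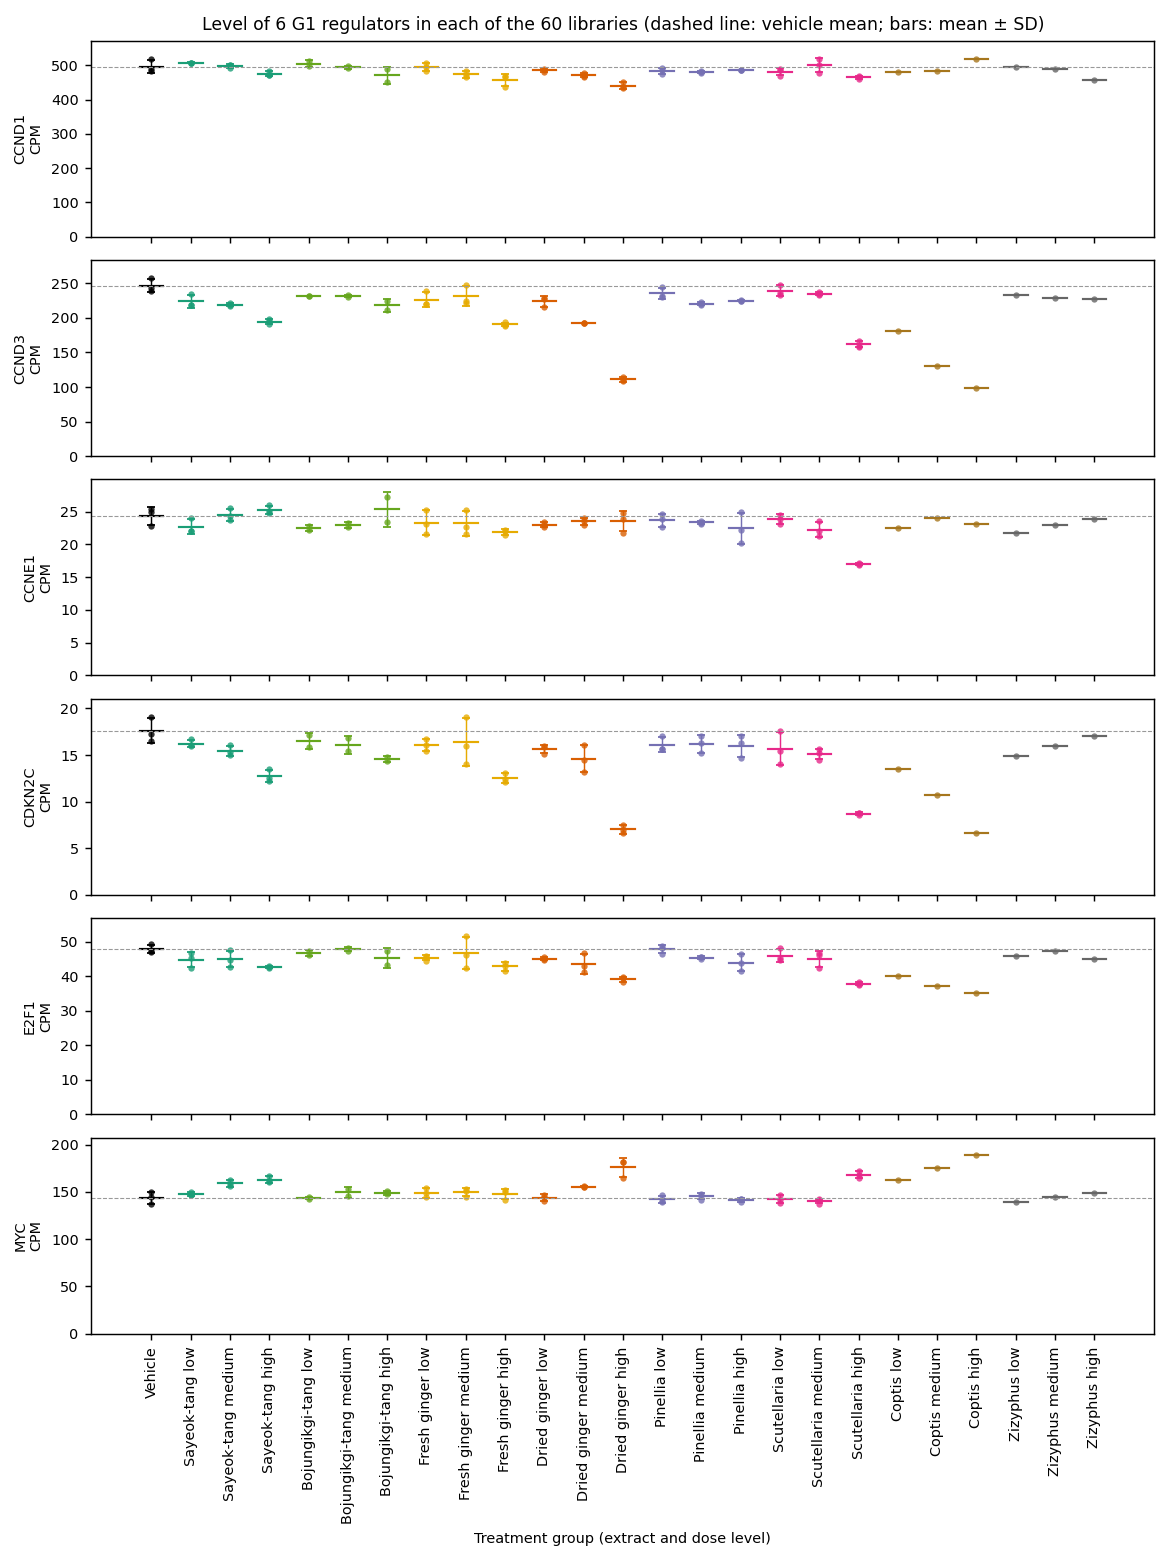
CPM (vertical axes, from 0) of 6 of the genes in each of the 60 libraries, by treatment group. Points are libraries, horizontal lines group means, bars SD where there are several libraries, and the dashed line is the vehicle mean. CCND3 and CDKN2C are lowest in the high-dose Coptis library and in high-dose dried ginger, where MYC is high, and CCNE1 is low in high-dose Scutellaria alone, at 16.8 to 17.2 CPM.

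At the high dose, CCND3, CDKN2C and E2F1 fell and MYC rose in dried ginger and in Sayeok-tang. In fresh ginger the first 3 fell and MYC was not called, in Bojungikgi-tang CCND3 and CDKN2C fell, and in Pinellia CCND3 alone was called. Each comparison used edgeR's quasi-likelihood test, and a gene was called at a Benjamini-Hochberg adjusted p under 0.05 over all genes. High-dose dried ginger against vehicle called 7 of the 9 genes (6 lower, 1 higher), where 39.2% of all genes tested were called, and high against low dried ginger also called 7 (background 32.8%). High-dose Sayeok-tang called 5 (4 lower, 1 higher; background 18.9%), the medium dose 3 (10.8%), the low dose 2 (8.34%) and high against low 4 (7.58%). High-dose fresh ginger called 4, all lower (13.4%), and 2 against its own low dose (3.67%). High-dose Bojungikgi-tang called 2 (3.73%), medium-dose dried ginger 2 (6.15%), and high-dose and medium-dose Pinellia 1 each (8.93% and 7.17%). edgeR called 0 members in 6 other comparisons. They were medium-dose (background 1.94%) and low-dose (6.94%) Bojungikgi-tang, low-dose Pinellia (5.51%), low-dose dried ginger (3.60%) and medium-dose (0.770%) and low-dose (6.48%) fresh ginger, all against vehicle. Between 1 and 3 members had an unadjusted p under 0.05 in each of these, and DESeq2 called 1 member in low-dose dried ginger, 1 in low-dose fresh ginger and 0 in the other 4. High against low dose called 0 members for Bojungikgi-tang (0.712%; 4 at an unadjusted p under 0.05) and 0 for Pinellia (0.0663%; 2), with 0 by DESeq2 in both. All comparisons with vehicle share the same 3 vehicle libraries, so repeated directions among them are not independent. The vehicle libraries also carry a set number of their own, so handling and treatment cannot be told apart there, whereas high against low doses of an extract use no vehicle level.

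**Figure D2:**
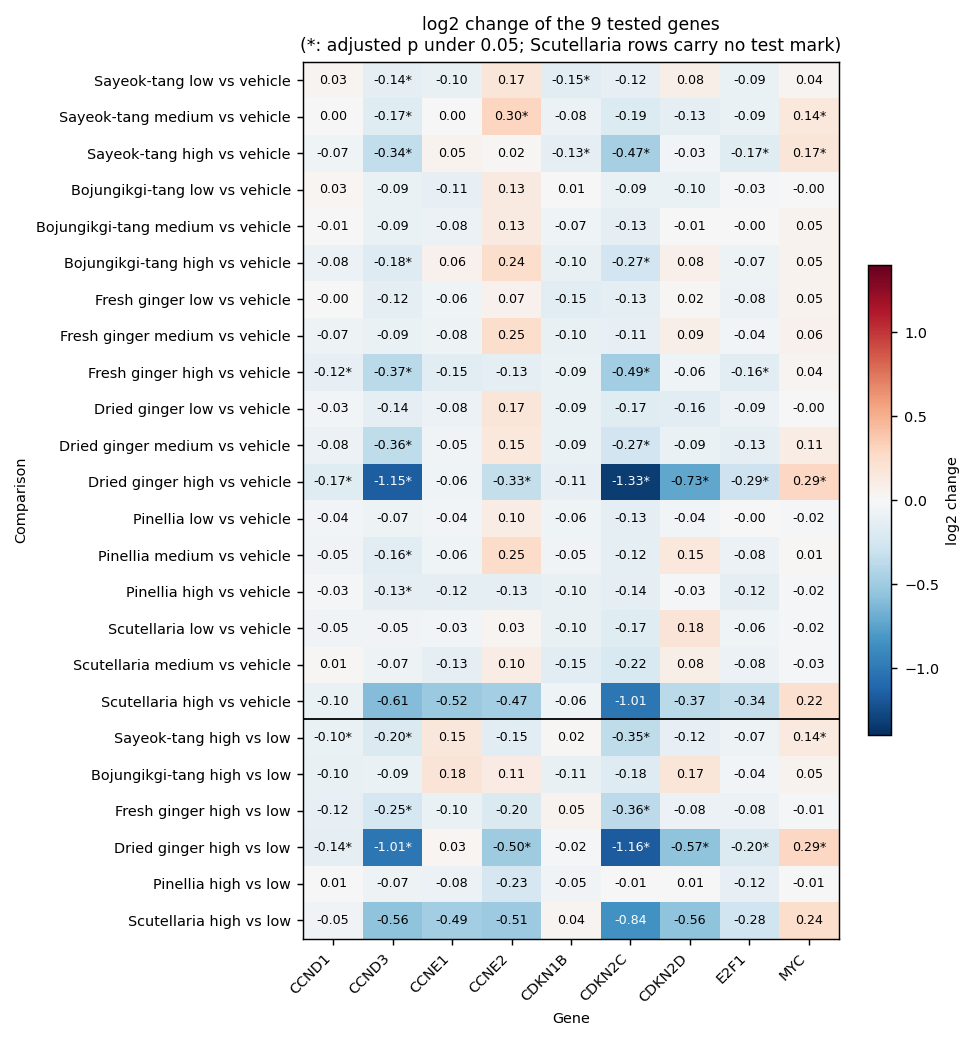
log2 change (colour and printed value) of the 9 tested genes (columns) in 18 comparisons with vehicle and 6 of high against low dose (rows). An asterisk marks an adjusted p under 0.05, and Scutellaria rows carry none because the genes were chosen there. CDKN2C (−1.33) and CCND3 (−1.15) in high-dose dried ginger against vehicle are among the darkest cells, with CDKN2C (−1.16) and CCND3 (−1.01) in high against low dried ginger.

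Among the D-type cyclins, CCND3 (ENSG00000112576, chromosome 6, 41934933 to 42050357) was the most responsive member and CCND1 stayed close to its vehicle level. CCND3 stood at 239.5, 243 and 258 CPM in the vehicle libraries and at 114, 108 and 110.4 CPM in high-dose dried ginger. The medium dose of dried ginger gave 192, 192 and 193 CPM, and the low dose 229, 228 and 215 CPM. CCND3 fell by 1.15 ± 0.04 (SE) on the log2 scale at the high dose (adjusted p = 5.33e-18, edgeR, n = 3 each) and by 0.36 ± 0.04 at the medium dose (adjusted p = 3.49e-06). High-dose fresh ginger held 194, 189.7 and 188 CPM (−0.37 ± 0.04, adjusted p = 6.01e-07), and high-dose Sayeok-tang 191, 198 and 195 CPM (−0.34 ± 0.03, adjusted p = 7.13e-10). All libraries of both groups lay below the lowest vehicle library. Libraries did not overlap with vehicle for 59.4% of 10981 genes in high-dose dried ginger, 41.1% in high-dose fresh ginger and 41.3% in high-dose Sayeok-tang. Over the 5 replicated extracts other than Scutellaria, CCND3 fell in 9 of 15 comparisons with vehicle and in 3 of 5 comparisons of high with low dose, and it rose in none by edgeR. Small falls were called in medium-dose (−0.17 ± 0.03) and low-dose (−0.14 ± 0.03) Sayeok-tang, high-dose Bojungikgi-tang (−0.18 ± 0.04) and high-dose and medium-dose Pinellia (−0.13 ± 0.03 and −0.16 ± 0.03). Without vehicle library 3, the highest for CCND3, low-dose Sayeok-tang (adjusted p = 0.0507, edgeR) and high-dose Pinellia (adjusted p = 0.0725) lost their calls, and the Bojungikgi-tang call was lost without its high-dose library 3 (adjusted p = 0.119).

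CCND1 (ENSG00000110092, chromosome 11, 69641087 to 69654474), the most abundant of the 3 D-type cyclins, read 517, 489.9 and 482 CPM in vehicle and 452, 434 and 435 CPM in high-dose dried ginger. Its fall there was small (−0.17 ± 0.04, adjusted p = 4.69e-04, edgeR), and high against low dose gave −0.14 ± 0.04 (adjusted p = 0.00466). In high-dose fresh ginger it read 467, 468 and 436 CPM (−0.12 ± 0.04, adjusted p = 0.0335), a call that was lost without vehicle library 1 (adjusted p = 0.193), vehicle library 2 (adjusted p = 0.0595) or fresh ginger library 3 (adjusted p = 0.170), and without a filter on low counts (adjusted p = 0.0845). High against low fresh ginger gave −0.12 and was not called in the main fit. That difference was called by edgeR with a replicate block (adjusted p = 0.0311) and in the fit of all 60 libraries (adjusted p = 0.0111), and by DESeq2 (adjusted p = 0.0172). In high against low Sayeok-tang CCND1 gave −0.10 ± 0.03 (adjusted p = 0.0436, edgeR), lost on leaving out any 1 of the 6 libraries and without the filter (adjusted p = 0.174). The LTO1 gene on the opposite strand overlaps CCND1 (median 25.8 CPM), and the sources used here do not say whether the authors counted by strand. Because CCND3 fell more than CCND1, its share of the summed D-type cyclin level per kilobase went from 29.3 ± 1.49% in vehicle (SD, n = 3) to 17.3 ± 0.128% in high-dose dried ginger and 25.4 ± 0.439% in high-dose Sayeok-tang. That share was 22.5 ± 0.622% in high-dose Scutellaria and 23.8, 18.3 and 13.7% in the low, medium and high Coptis libraries.

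The E-type cyclins activate CDK2, and the difference between the 2 genes was not tested. CCNE1 (ENSG00000105173, chromosome 19, 29811898 to 29824308) read 22.8, 25.0 and 25.4 CPM in vehicle and 23.9, 24.9 and 21.8 CPM in high-dose dried ginger, where 6 of the other genes had fallen (−0.06 ± 0.06, adjusted p = 0.494, edgeR). It was called in 0 of 15 comparisons with vehicle outside Scutellaria by edgeR (1 at an unadjusted p under 0.05) and in 0 by DESeq2, with log2 changes between −0.15 and 0.06. In high-dose Scutellaria it read 17.0, 16.8 and 17.2 CPM, below every other library of the series, a log2 change of −0.52 ± 0.06, and CCNE2 there read 5.38, 4.79 and 6.65 CPM, a log2 change of −0.47 ± 0.11. The doses differ between the extracts, and the difference between Scutellaria and dried ginger in CCNE1 was not tested.

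CCNE2 (ENSG00000175305) was low, at 7.37, 8.31 and 7.69 CPM in vehicle. In high-dose dried ginger it read 5.68, 7.00 and 6.01 CPM (−0.33 ± 0.12, adjusted p = 0.0242, edgeR), below all 3 vehicle libraries, where 59.4% of 10981 genes did not overlap vehicle. The call against vehicle was lost without vehicle library 2 (adjusted p = 0.112), dried ginger library 1 (adjusted p = 0.104) or library 3 (adjusted p = 0.0894), while high against low dose (9.01, 8.74 and 8.52 CPM) gave −0.50 ± 0.12 (adjusted p = 0.00121) and kept its call without any 1 library. Medium-dose Sayeok-tang held 9.30, 9.13 and 10.5 CPM, a rise of 0.30 ± 0.10 (adjusted p = 0.0380), lost under DESeq2 (adjusted p = 0.0901), in the fit of all 60 libraries (adjusted p = 0.0704) and without any of vehicle libraries 1 and 3 and Sayeok-tang libraries 1 and 3. Of the 15 comparisons with vehicle outside Scutellaria, 13 did not call CCNE2. INTS8 (median 63.6 CPM) and NDUFAF6 (13.0 CPM) overlap it on the opposite strand, so reads counted without strand could not be told apart.

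Of the CDK inhibitors, CDKN2C (ENSG00000123080, chromosome 1, 50960745 to 50974633) fell the most, and CDKN1B hardly moved. CDKN2C read 16.5, 17.3 and 19.1 CPM in vehicle and 7.49, 6.60 and 6.95 CPM in high-dose dried ginger, while the medium dose (16.1, 14.4 and 13.2 CPM) and the low dose (15.9, 16.0 and 15.2 CPM) lay near or just below vehicle. CDKN2C in high-dose dried ginger was thus at 0.398 of the vehicle level (log2 change −1.33 ± 0.09, adjusted p = 1.17e-12, edgeR), with no overlap with the vehicle libraries. Against its low dose it fell by 1.16 ± 0.09 (adjusted p = 3.88e-11). High-dose Sayeok-tang read 12.2, 13.5 and 12.6 CPM (−0.47 ± 0.07, adjusted p = 2.42e-06), and high-dose fresh ginger 12.1, 12.5 and 13.1 CPM (−0.49 ± 0.09, adjusted p = 2.31e-04). Both groups were below every vehicle library. Libraries did not overlap with vehicle for 59.4% of 10981 genes in high-dose dried ginger, 41.3% in high-dose Sayeok-tang and 41.1% in high-dose fresh ginger. Against their low doses, high-dose Sayeok-tang gave −0.35 ± 0.07 (adjusted p = 5.85e-04) and high-dose fresh ginger −0.36 ± 0.09 (adjusted p = 0.0118). The fresh ginger dose difference was lost without high-dose library 1 (adjusted p = 0.0778) or 2 (adjusted p = 0.0573) or low-dose library 3 (adjusted p = 0.0628). High-dose Bojungikgi-tang, at 14.8 and 14.3 CPM, was also called (−0.27 ± 0.07, adjusted p = 0.0272), as was medium-dose dried ginger (−0.27 ± 0.08, adjusted p = 0.0491). The first was lost under DESeq2 (adjusted p = 0.0788), in a fit of all 60 libraries (adjusted p = 0.0698) and without vehicle library 2 or 3 or either of its own, and the latter without vehicle library 2 or 3 or medium-dose library 2 or 3.

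Under Scutellaria, the extract in which CDKN2C was picked, the gene read 8.81, 8.75 and 8.56 CPM at 190 µg/mL (log2 change −1.01 ± 0.08), 14.5, 15.6 and 15.2 CPM at 38 µg/mL and 17.6, 15.5 and 14.1 CPM at 7.6 µg/mL. CCND3 there read 159.6, 158.6 and 167 CPM at the high dose (−0.61 ± 0.03), E2F1 38.4, 37.8 and 37.5 CPM (−0.34 ± 0.05) and MYC 164, 167 and 172 CPM (0.22 ± 0.03). High-dose Scutellaria put 40.3% of all genes past the call threshold, and the members, chosen with this extract seen, are not set against that share. Ordered by mean over the 19 groups with replicates, CDKN2C was lowest in high-dose dried ginger, next in high-dose Scutellaria and then in high-dose fresh ginger, with vehicle the highest. The first 3 did not overlap, fresh ginger and Sayeok-tang at the high dose overlapped, Sayeok-tang did not overlap Bojungikgi-tang, and from high-dose Bojungikgi-tang upwards all neighbours in the order overlapped. The share of all genes with such gaps between treated groups was not computed, so the order is given only as a position.

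CDKN2D (ENSG00000129355, chromosome 19, 10566462 to 10569059), the other measured INK4 inhibitor, was scarce. It read 2.77, 3.03 and 2.84 CPM in vehicle (71 to 93 counts per library). In high-dose dried ginger it read 1.97, 1.51 and 1.73 CPM, with no overlap. Of the 10981 genes averaging 5 CPM or more 59.4% did not overlap, but CDKN2D is scarcer than these, so that share is not its background. Its fall in high-dose dried ginger was 0.73 ± 0.15 on the log2 scale against vehicle (adjusted p = 2.10e-04, edgeR), and 0.57 ± 0.15 against the low dose (adjusted p = 0.00395). It was called in 1 of 15 comparisons with vehicle outside Scutellaria, and its SE of 0.15 in high-dose dried ginger was about the size of the changes seen for CCND3 in Pinellia. CDKN1B (ENSG00000111276, chromosome 12, 12715058 to 12722371) read 36.2, 37.6 and 35.8 CPM in vehicle and 33.6, 34.3 and 33.7 CPM in high-dose dried ginger (−0.11 ± 0.05, adjusted p = 0.0580), a difference that was called with relative log expression scaling (adjusted p = 0.0415) and in the fit of all 60 libraries (adjusted p = 0.0427). Its only calls were in high-dose (−0.13 ± 0.05, adjusted p = 0.0452) and low-dose Sayeok-tang (−0.15 ± 0.05, adjusted p = 0.0445), and both were lost under DESeq2 (adjusted p = 0.126 and adjusted p = 0.0913). The low-dose call was also lost on leaving out any 1 of its 6 libraries, and the high-dose call without vehicle library 1 or 2 or Sayeok-tang library 2 or 3. High against low dose called CDKN1B in 0 of 5 extracts by edgeR (0 at an unadjusted p under 0.05) and 0 by DESeq2.

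E2F1 (ENSG00000101412, chromosome 20, 33675683 to 33686404), the activator at the end of the cascade, showed small falls. It read 47.1, 47.3 and 49.4 CPM in vehicle and 39.7, 38.4 and 39.5 CPM in high-dose dried ginger (−0.29 ± 0.05, adjusted p = 5.86e-05, edgeR), and the fall against the low dose (44.6, 45.5 and 45.1 CPM) was 0.20 ± 0.05 (adjusted p = 0.00378). High-dose Sayeok-tang was at 42.6, 42.5 and 43.0 CPM (−0.17 ± 0.04, adjusted p = 0.00645). High-dose fresh ginger was at 41.5, 43.1 and 43.9 CPM (−0.16 ± 0.05, adjusted p = 0.0436), a call that was lost on leaving out any 1 of the 6 libraries.

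MYC (ENSG00000136997) was the 1 member that rose in dried ginger where 6 others fell. It read 145, 137 and 149.7 CPM in vehicle and 181.5, 181.6 and 164 CPM in high-dose dried ginger, a rise of 0.29 ± 0.04 (adjusted p = 4.39e-06, edgeR) and the same 0.29 ± 0.04 against the low dose (139.9, 147 and 144 CPM; adjusted p = 5.67e-06). High-dose Sayeok-tang read 159.9, 161 and 167 CPM (0.17 ± 0.03, adjusted p = 1.69e-04) and the medium dose 156, 158 and 163 CPM (0.14 ± 0.03, adjusted p = 0.00383), all above the highest vehicle library. Libraries did not overlap with vehicle for 41.3% of 10981 genes at the high dose and for 33.0% at the medium dose. High against low Sayeok-tang gave 0.14 ± 0.03 (adjusted p = 0.00651), lost without high-dose library 3 (adjusted p = 0.0598). Fresh ginger at the high dose, at 151, 150.1 and 141 CPM, overlapped vehicle (0.04 ± 0.04, adjusted p = 0.628).

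Fresh and dried ginger were compared at equal doses. At 500 µg/mL edgeR called 4 of the 9 genes (background 22.5%): CCND3 (0.78 ± 0.04, adjusted p = 1.76e-13), CDKN2C (0.84 ± 0.10, adjusted p = 9.75e-08) and CDKN2D (0.67 ± 0.15, adjusted p = 0.00156) were higher in fresh ginger, and MYC was lower (−0.25 ± 0.04, adjusted p = 8.60e-05). CCND1 (0.05 ± 0.04), CCNE1 (−0.10 ± 0.07), CCNE2 (0.20 ± 0.12), CDKN1B (0.02 ± 0.05) and E2F1 (0.13 ± 0.05) did not pass the test. At 100 µg/mL CCND3 alone was called (0.27 ± 0.04, adjusted p = 0.00118; background 0.481%). The change from low to high dose differed between the ginger extracts for CCND3 (0.76 ± 0.06, adjusted p = 1.11e-09), CDKN2C (0.80 ± 0.13, adjusted p = 5.24e-05) and MYC (−0.30 ± 0.06, adjusted p = 0.00127), 3 of 9 genes where the background was 11.2%. Between the formulas at 500 µg/mL, CCND3 was lower in Sayeok-tang than in Bojungikgi-tang (−0.17 ± 0.04, adjusted p = 0.00817), the 1 call of 9 (background 2.05%), and it was lost without Sayeok-tang library 1 (adjusted p = 0.0644) or Bojungikgi-tang library 2 (adjusted p = 0.271). The dose change differed between the formulas for 0 of 9 genes by edgeR (background 0.275%; 1 at an unadjusted p under 0.05) and for 0 by DESeq2.

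**Figure D3:**
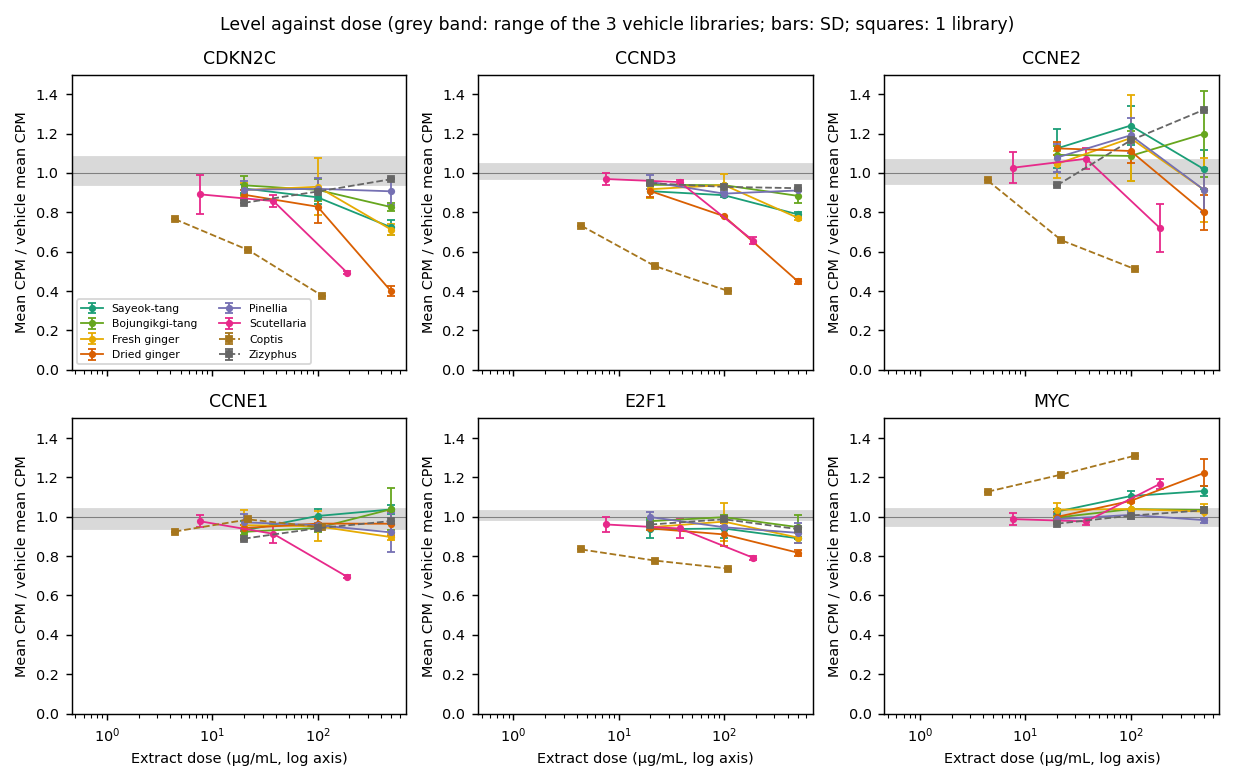
Group mean CPM divided by the vehicle mean (vertical axis) against extract dose in µg/mL (log axis) for 6 genes, 1 line per extract. Bars are SD, squares with dashed lines are extracts with 1 library per dose, and the grey band is the range of the 3 vehicle libraries. Dried ginger drops between 100 and 500 µg/mL for CDKN2C and CCND3, Coptis is below vehicle for both from 4.4 µg/mL, and Zizyphus lies at 0.848 to 0.968 of the vehicle mean for CDKN2C.

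In Coptis, with 1 library per dose and intervals that cover counting error only, several genes were ordered by dose. The medium-dose and low-dose libraries stood apart from all others, with 15.9 and 15.0% mitochondrial counts (9.92% at the high dose, 8.29 to 11.7% in the libraries of all other groups) and scaling factors of 0.9305 and 0.9448. The part of this in the order over doses was not tested. CDKN2C read 13.5 (95% Poisson interval 11.9 to 15.2), 10.7 (9.31 to 12.3) and 6.64 CPM (5.62 to 7.79) at 4.4, 22 and 110 µg/mL, all below the lowest vehicle library. CCND3 read 181, 130.1 and 98.6 CPM and E2F1 40.0, 37.3 and 35.3 CPM at those doses, again below vehicle. MYC read 162, 175 and 188 CPM, above the highest vehicle library at each dose. At 110 µg/mL the log2 ratio to the vehicle mean, after adding 0.5 CPM, was −1.34 for CDKN2C and −1.32 for CCND3, the 2 members past 2-fold, where 1.56% of 10981 genes were, and CCNE2 at 3.98 CPM did not reach it (−0.89). CCNE1, at 22.6, 24.1 and 23.1 CPM from low to high dose, was within or just under the vehicle range. In Zizyphus CDKN2C read 14.9, 16.0 and 17.1 CPM and CCND3 234, 229 and 228 CPM from low to high dose, and no member changed 2-fold at 500 µg/mL (0.100% of genes did). Since a single library lay outside the range of 3 vehicle libraries for 52.7 to 81.8% of genes, being outside it is common and is given only as a position.

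The genes that E2F factors switch on were followed through a list of 28 replication genes. This list and those below were chosen with earlier results of these data known, so their counts are a description. In high-dose dried ginger 26 of the 28 fell and 0 rose against vehicle (edgeR; 19.0% of all genes fell), with a median log2 change of −0.304 beside 0.009 over all genes, and 24 fell against the low dose (background 16.0%). They included cyclin A2 (CCNA2, −0.66 ± 0.04), the ribonucleotide reductase subunit RRM2 (−0.58 ± 0.04) and thymidine kinase TK1 (−0.70 ± 0.06), while the clamp loader RFC4 (−0.09 ± 0.06) and the licensing factor CDT1 (−0.09 ± 0.06) did not pass the test. In high-dose fresh ginger 9 of 28 fell (background 7.16%; median −0.080), and 25 of 28 were higher in fresh than in dried ginger at 500 µg/mL (background 11.3%; median 0.215). In high-dose Sayeok-tang 6 fell (background 9.53%; median −0.051), among them PCNA (−0.19 ± 0.03) and TK1 (−0.27 ± 0.04), in high-dose Pinellia 3 (5.08%) and in high-dose Bojungikgi-tang 1 (2.33%). High-dose Scutellaria had a median of −0.320, and Coptis had medians of −0.156, −0.256 and −0.456 from low to high dose, with 25, 28 and 27 of 28 genes below the vehicle range, as were 35.6, 37.5 and 42.9% of 10981 genes.

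**Figure D4:**
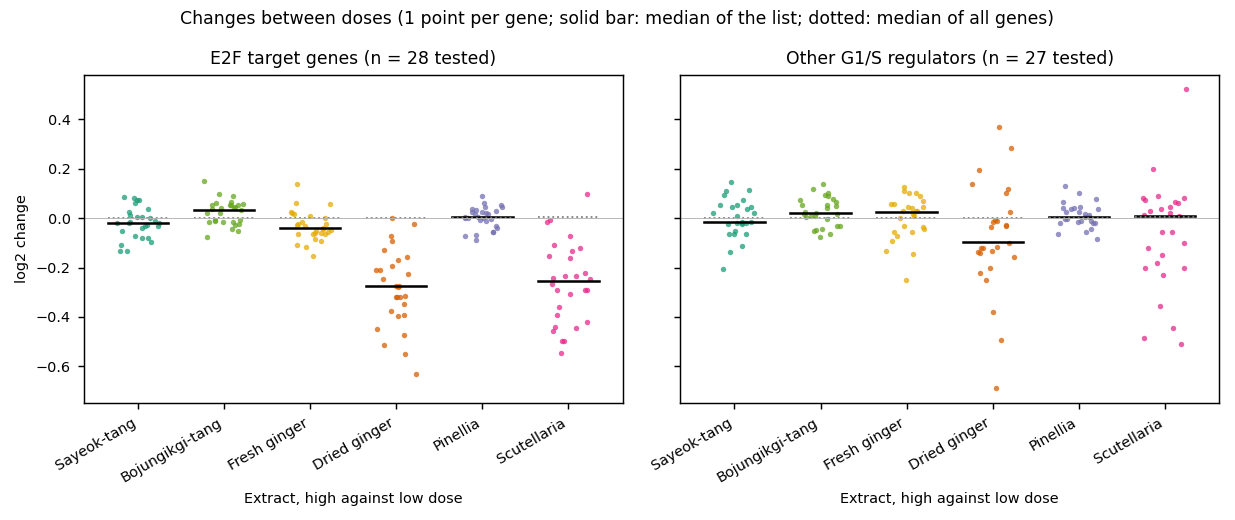
log2 change between high and low dose (vertical axis) of the E2F target genes (left) and the other G1/S regulators (right), 1 point per gene, for the 6 extracts with replicates. Solid bars are list medians and dotted bars the median of all genes tested. E2F targets lie mostly below 0 in dried ginger (median −0.276) and Scutellaria (median −0.256) and around 0 in the other 4 extracts.

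A second list held 30 other regulators of the G1/S step, of which 27 were tested. In high-dose dried ginger 5 rose (background 20.2%) and 7 fell (background 19.0%) against vehicle, with a median of −0.043. The phosphatase CDC25A (−0.44 ± 0.05), which activates CDK2, the repressors E2F7 (−0.43 ± 0.06) and E2F8 (−0.58 ± 0.08) and the E2F partner TFDP1 (−0.24 ± 0.04) had the lowest p-values of the list. CDKN1A, the p21 inhibitor, rose by 0.37 ± 0.04 between low and high dried ginger. Against vehicle, a different baseline, it fell in high-dose fresh ginger (−0.14 ± 0.04). High against low fresh ginger called 0 of the 27 regulators (background 3.67%), so CDKN1A was not called to change with the fresh ginger dose. CDKN1A was lower in fresh than in dried ginger at 500 µg/mL (−0.30 ± 0.04, adjusted p = 1.64e-06). In high-dose Sayeok-tang 2 of the 27 rose and 2 fell, no larger a share than the 9.39% and 9.53% of all genes that did. Among them were the RB-related RBL1 at 0.20 ± 0.04 and the CDK subunit CKS1B at −0.12 ± 0.04.

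Around MYC, 9 partners and antagonists and 15 target genes were tested. In high-dose dried ginger the antagonists MXI1 (0.61 ± 0.08) and MXD1 (0.55 ± 0.10) and the partner MAX (0.19 ± 0.05) rose, and MLXIP (−0.28 ± 0.04) and MXD3 (−0.46 ± 0.17) fell. Of the 15 targets 2 rose and 5 fell there, where 20.2% of all genes rose and 19.0% fell, with a median of −0.083, and the falls included the nucleolar genes NOP16 (−0.27 ± 0.05), NOP56 (−0.18 ± 0.04), NCL (−0.17 ± 0.04) and FBL (−0.19 ± 0.06). In high-dose Sayeok-tang, where MYC was also called higher, 2 of the 15 targets rose, NOLC1 (0.14 ± 0.03) and POLR1B (0.13 ± 0.04), and 1 fell, NOP16 (−0.11 ± 0.04), near the shares over all genes of 9.39% and 9.53%. The other 8 targets in dried ginger and the other 12 in Sayeok-tang did not pass the test.

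Likeness of pattern was described by Pearson's r over the 25 group means of log2 CPM, among 10981 genes. These points share the scaling over all 60 libraries and the library preparation. For CCND3 and CDKN2C the groups furthest from the median were high-dose Coptis and high-dose dried ginger. Among the points are the Scutellaria groups, where CDKN2C was picked, so each r with CDKN2C draws on those values and is a description. Leaving out groups for CCND3 and CDKN2C, as given below, kept Scutellaria in. Nearest to CDKN2C were the mitotic genes KIF20A (r = 0.980) and PLK1 (0.979) and the importin KPNA2 (0.977), and nearest to CCND3 were AVPI1 (0.984), RACGAP1 (0.981) and PBK (0.979). E2F1 was most like PCNA (0.958), FEN1 (0.955) and PABIR2 (0.950), MYC most like JUN (0.954), IRF2BPL (0.953) and GREM1 (0.950), and CCNE2 most like MATR3 (0.930) and H2AX (0.921). CCNE1 (nearest OGFR, 0.838; FABP5, 0.819; DNAJA2, 0.817), CCND1 (VASP, 0.773; COL5A1, 0.765; STAT3, 0.746) and CDKN1B (HSF2, 0.713; TELO2, 0.659; SLC25A51, 0.653) had no gene as close. Among the members, CCND3 and CDKN2C had r = 0.954, which was 0.868 over the 23 groups left without high-dose Coptis and dried ginger and 0.968 without medium-dose and low-dose Coptis, a choice made after seeing the data. CCND3 and MYC had r = −0.926 (−0.873 and −0.916 without those groups in turn), and CCNE1 and CDKN2C had 0.299, or −0.046 without high-dose Scutellaria and high-dose Bojungikgi-tang.

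Marker genes of other cell types also differed from vehicle in several groups, the leukocyte sum at low doses as well as high. The summed level of 5 leukocyte markers was 6.20 to 6.35 CPM in vehicle, 15.9 to 17.0 CPM in high-dose dried ginger, 9.03 to 12.4 CPM in high-dose Sayeok-tang and 8.16 to 8.71 CPM in high-dose fresh ginger, carried by CD68, with PTPRC, CD3E and LYZ at or near 0. It also lay above vehicle in low-dose Sayeok-tang (6.53 to 8.31 CPM) and low-dose dried ginger (6.92 to 7.38 CPM). In other groups, such as low-dose Pinellia (6.27 to 8.67 CPM), it overlapped vehicle. The sum of 5 fibroblast markers, nearly all from COL1A1, was 32.1 to 35.8 CPM in vehicle, and at the high dose 20.0 to 21.2 CPM in dried ginger, 25.9 to 27.6 CPM in Sayeok-tang and 19.0 to 23.2 CPM in fresh ginger. The sum of 7 markers of the line itself was 15529 to 16292 CPM in vehicle, and at the high dose 12207 to 12759 CPM in dried ginger, 13160 to 13203 CPM in Sayeok-tang and 14164 to 14611 CPM in fresh ginger. It was also below vehicle in low-dose Sayeok-tang (14661 to 14858 CPM) and low-dose dried ginger (14373 to 14777 CPM), and overlapped vehicle in medium-dose fresh ginger (14878 to 16313 CPM). The part of these markers in the changes above was not tested.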

How the data were processed

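Strand-specific mRNA libraries from A549 cells were sequenced as 100 bp pairs, per the labels' protocols. The deposited table holds expected counts per gene made by the authors with FastQC 0.11.9, Trim Galore 0.6.5, STAR 2.7.3a and RSEM 1.3.3 on hg38 (GRCh38), per the submitters' processing notes; the annotation release and strand setting were not given in the sources used here. Of its 269 value columns 209 match no sample used here and were not used. Expected counts were rounded. Positions and exon lengths came from GENCODE 29.

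The members and gene lists were chosen with earlier results of these data known. Each of 3 fits held both extracts of a labelled set and the 3 vehicle libraries: Sayeok-tang with Bojungikgi-tang (16721 genes), the ginger extracts (16628) and Pinellia with Scutellaria (16582). Genes passed filterByExpr (minimum count 10), were scaled by TMM and tested with edgeR 4.0.16 (robust quasi-likelihood F-test, R 4.3.3), Benjamini-Hochberg adjusted over all genes, and called at 0.05. CPM errors are SD and log2 errors SE. The test was checked on simulated data. Coptis and Zizyphus were described by log2 ratios with 0.5 CPM added, over the 10981 genes averaging 5 CPM or more.

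Named from each list were up to 4 members past the test with the lowest p per comparison; RFC4 and CDT1, which did not pass it, and MXD3, the fifth of its list, were named after their values were seen. A few list genes that the rules would name are not reported here. Alternatives were relative log expression scaling, no filter, DESeq2 1.42.0, 1 fit of all 60 libraries, a replicate block, another pseudocount and leaving out each library. Same-numbered libraries deviated together by correlations of −0.059 to 0.11. Low correlations over all genes cannot exclude that the numbers pair the libraries. The main fits used no pairing, and the replicate block is the alternative that does. Whether replicates came from separate cultures is not stated, so p-values measure a spread that may be technical. The vehicle libraries carry a set number of their own, and a difference in handling cannot be told apart from treatment in comparisons with vehicle.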

Additional observations from a re-analysis of the deposited data

Results flagged for a closer look

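The dose response of 3 members differed between the ginger extracts by an interaction test (edgeR). The change from 20 to 500 µg/mL was less negative in fresh than in dried ginger for CCND3, by 0.7645 on the log2 scale, and for CDKN2C, by 0.798. For MYC the change was lower in fresh ginger, at −0.3008. In dried ginger MYC was higher in each of the 3 high-dose libraries than in each of the low-dose ones, and in fresh ginger the dose groups overlapped. The share of all genes separated between doses in this way was not computed.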

How the results depend on the processing

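No value of the 9 tested genes changed sign with a call under any alternative. Of 2907 alternative values of 261 member values, 2813 stayed on their side of the threshold, 69 lost a call and 25 gained one. The falls of CCND3 and CDKN2C and the rise of MYC in high-dose dried ginger and Sayeok-tang against vehicle kept their calls under each setting run. The replicate block took away 0 calls and added 3, and moved the number of members called from 0 to 1 in low-dose fresh ginger (CDKN1B) and from 0 to 1 in low-dose dried ginger (CCND3). DESeq2 called 1 member in low-dose Sayeok-tang, 1 in high-dose Bojungikgi-tang, 1 in low-dose fresh ginger and 1 in low-dose dried ginger. The fit of all 60 libraries called 1 in high-dose Bojungikgi-tang, 2 in low-dose fresh ginger, and 1 in low-dose dried ginger. Leaving out 1 library gave the following ranges of members called against vehicle: Sayeok-tang high 4 to 5, medium 2 to 3 and low 0 to 1; Bojungikgi-tang high 0 to 2; fresh ginger high 2 to 3, medium 0 to 1 and low 0 to 1; dried ginger high 6 to 7 and medium 1 to 2; Pinellia high 0 to 2. Nothing is read from Scutellaria, where the members were chosen, and its counts past the threshold are given as description: 1 at the medium dose with all 60 libraries, 1 with relative log expression scaling and 2 without a filter, and on leaving out 1 library 6 to 7 at the high, 0 to 1 at the medium and 0 to 1 at the low dose. Between doses the ranges were 2 to 3 in Sayeok-tang and 1 to 2 in fresh ginger, and between the formulas at the high dose 0 to 1. Leaving out 1 library moved counts over all genes too. Sayeok-tang medium went from 1802 to 836 without its library 1, and Bojungikgi-tang high from 623 to 199 without its library 2. Pinellia high went from 1480 to 673 without vehicle library 3, while fresh ginger medium rose from 128 to 600 without its library 2. The ranges of members are thus not read as particular to the members. Counts over all genes moved by over 1.5 times in the fit of all 60 libraries for Bojungikgi-tang high (367 against 623), medium (107 against 325) and low (759 against 1160), fresh ginger medium (462 against 128), low (2054 against 1077) and high against low (1010 against 611), dried ginger medium (1800 against 1022) and low (1403 against 599), fresh against dried ginger at medium (254 against 80) and Pinellia high against low (21 against 11). Without a filter these were 544 for Bojungikgi-tang medium, 193 against 119 for its high against low dose, 88 against 46 for the formulas' difference in dose change, 299 for fresh ginger medium, 975 for dried ginger low, 245 for fresh against dried ginger at medium and 58 for Pinellia high against low. DESeq2 gave 272, 151 and 22 for fresh ginger medium, fresh against dried ginger at medium and Pinellia high against low, and the block 232 and 122 for the first pair of these. The causes were not tested. With 2 CPM added instead of 0.5, CDKN2C in high-dose Coptis was −1.18. Depth limits CCND2 and, at 34 to 98 counts per library, CDKN2D.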
